A study of Homo sapiens with 12 samples.

Results

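The plakins and the AHNAK proteins are among the largest cytoskeletal proteins of human cells, and their messages carry some of the longest coding sequences and coding exons of the genome. Here 8 of these genes were followed through RNA immunoprecipitation sequencing (RIP-seq): the plakins PLEC, DST, MACF1, DSP, EVPL and PPL, and the giants AHNAK and AHNAK2. They were chosen by gene name, with the peaks of these lists already in view, so that they carried peaks, and how many, is a description and was not tested. Together they held 305 of the 101848 peaks in 6 lists, and they are 8 of the 10830 gene names that had a peak in any list.

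RIP-seq pulls a protein down with an antibody, sequences the RNA that comes with it, and sets that RNA against a share of the lysate kept as input. All 12 samples of the series were from HepG2, a human cell line established from liver cancer. There were 2 replicate RIP samples for each of METTL16, an RNA methyltransferase, and eIF3a and eIF3b, subunits of the translation initiation factor eIF3, together with 6 inputs. The cells stably overexpressed METTL16, eIF3a or eIF3b with a 3xFlag tag, and no sample of untransduced cells was used here. According to the labels, METTL16 and eIF3b were pulled down with a Flag antibody and eIF3a with an antibody against eIF3a, while the names of all 6 lists say flag. For eIF3a the protein and the antibody therefore cannot be told apart and lists from control antibodies were not analysed here. Each RIP sample has a list of peaks, which are exonic stretches with more RIP than input reads, and the lists held from 12921 to 21733 peaks.

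Plakins are linkers between the parts of the cytoskeleton and the sites where cells hold on to each other or to their base. They share a plakin domain, and most also carry a long rod and a tail of plakin repeats that grips intermediate filaments. Plectin (PLEC) ties intermediate filaments to hemidesmosomes and to other structures, desmoplakin (DSP) ties them to desmosomes, and envoplakin (EVPL) and periplakin (PPL) are precursors of the cornified envelope of stratified epithelia. Dystonin (DST) and MACF1 are spectraplakins, which have spectrin repeats in the rod and bind both actin and microtubules. AHNAK and AHNAK2 are scaffold proteins made for the most part of repeated units encoded in a single giant exon.

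The sequences below show where peaks fell on these messages, as read from GENCODE transcripts on GRCh38, written 5′ to 3′ on the coding strand. The first lines are the joins that single peaks made across annotated exons, shown because each of them leaves out a long stretch of coding sequence. Lower case marks the last 30 bases before the jump and capitals the first 30 bases after it.
DSP, exon 23 to exon 24, from base 7579772 to base 7582642 of chromosome 6: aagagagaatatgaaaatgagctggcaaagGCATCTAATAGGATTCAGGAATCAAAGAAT
MACF1, exon 36 to exon 42, from base 39327353 to base 39349478 of chromosome 1: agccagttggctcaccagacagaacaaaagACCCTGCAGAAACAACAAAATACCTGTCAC
DST, exon 39 to exon 45, from base 56610427 to base 56600221 of chromosome 6, minus strand: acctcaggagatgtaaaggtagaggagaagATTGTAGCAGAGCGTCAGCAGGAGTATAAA

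A second set shows coding bases of EVPL and PPL that lay under a peak in all 6 lists, and the only bases of AHNAK2 that lay under any peak. The EVPL line is the middle of a stretch of 630 coding bases (bases 4204 to 4833 of the coding sequence, GC content 65.7%) in exon 22, and the PPL line is a whole stretch of 61 bases, also in exon 22, with a GC content of 70.5%.
EVPL, chr17:76008642-76008731, minus strand: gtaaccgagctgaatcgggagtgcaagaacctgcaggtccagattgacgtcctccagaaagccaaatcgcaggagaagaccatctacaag
PPL, chr16:4885566-4885626, minus strand: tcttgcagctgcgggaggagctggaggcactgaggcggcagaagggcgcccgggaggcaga
AHNAK2 in METTL16 replicate 2, chr14:104942710-104942770, minus strand: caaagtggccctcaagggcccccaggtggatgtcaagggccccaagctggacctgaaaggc
AHNAK2 in eIF3b replicate 1, chr14:104950474-104950534, minus strand: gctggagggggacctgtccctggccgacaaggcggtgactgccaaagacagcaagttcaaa

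The members differed widely in the share of coding sequence under peaks, from nearly all of PLEC to almost none of AHNAK and AHNAK2. The share is the percentage of coding bases of the canonical transcript that lay under a deposited peak, so it is already relative to length. Its denominator includes stretches that peaks jumped and no peak covered, 27.8% of MACF1, 26.7% of DST and 20.9% of DSP. It also includes exon 5 of AHNAK, 98.1% of that coding sequence, which no peak touched. Averaged over the 6 lists the share was 86.5% for PLEC, 57.2% for EVPL, 32.2% for PPL, 20% for MACF1, 17.3% for DSP, 12.2% for DST, 0.46% for AHNAK and 0.117% for AHNAK2. Neighbours in this order were not all separated by list. PPL, DSP, MACF1 and DST overlapped in range, and only PLEC was above every other member within each of the 6 lists.

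**Figure D1:**
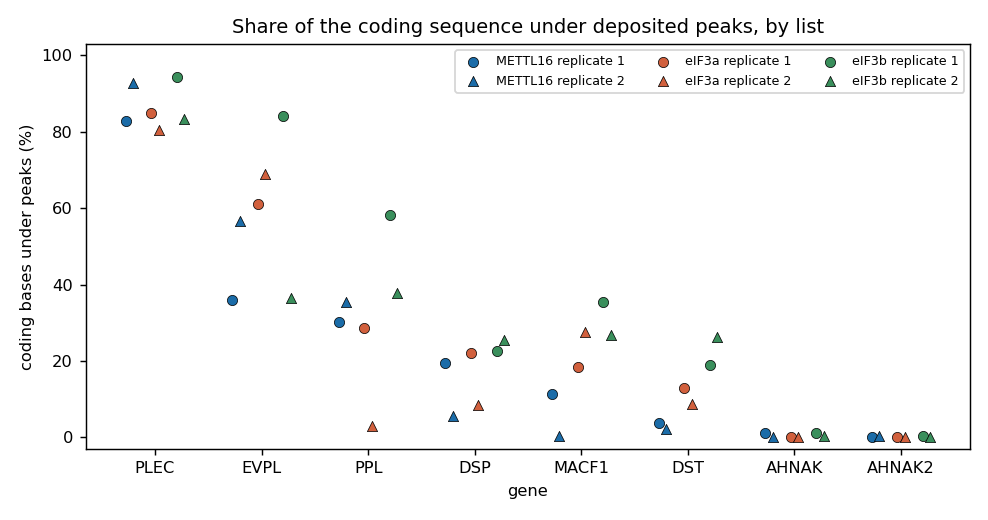
Percentage of coding bases under deposited peaks for each gene (x axis) in each of the 6 lists, with colours for the protein and circles and triangles for replicates 1 and 2. PLEC lies between 80.6% and 94.4% in every list, while AHNAK and AHNAK2 lie at or below 1.14%.

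By number of peaks, MACF1 had 69, PLEC 62, DST 59, EVPL 43, DSP 33, PPL 32, AHNAK 5 and AHNAK2 2 over the 6 lists. Of the 305 peaks, 266 lay wholly on coding bases, 13 touched the 5′ UTR and 19 touched the 3′ UTR (here with the stop codon). PLEC, DST, MACF1, DSP, EVPL and PPL had a peak in all 6 lists, 6 of 8 members, against 25.2% of all gene names. In both METTL16 replicates 7 of 8 had a peak (background 42.6%), in both eIF3a replicates 6 of 8 (background 42.4%) and in both eIF3b replicates 7 of 8 (background 60%). Since the members were picked for having peaks, nothing is read from these counts.

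PLEC (chr8:143915153-143976734, minus strand, 32 exons, 13641 coding bases) encodes plectin. Its last exons, exon 31 with 3381 coding bases and exon 32 with 6216, hold the rod and the plakin repeats and make up 70.4% of its coding sequence. Under peaks lay 82.9% and 92.9% of the coding bases in METTL16 replicates 1 and 2, 85% and 80.6% in eIF3a, and 94.4% and 83.4% in eIF3b. The ranges of the 3 proteins overlapped.

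Exon 31 of PLEC was covered by 100% in 4 lists, namely both METTL16 and both eIF3b lists, and by 97.4% and 76.2% in eIF3a replicates 1 and 2. Exon 32 was covered by 74.8% and 90% in METTL16, 88.6% and 86.6% in eIF3a, and 92.8% and 80.6% in eIF3b. The peaks were not limited to these exons, since the other coding exons together were covered by 69.2% to 92.1%. In all 6 lists at once, 8530 coding bases (62.5%) lay under peaks, nearly all of them in 15 stretches of at least 60 bases, the longest being 1260 bases from coding base 1519 to 2778. Only 141 coding bases, 1.03%, lay under no peak in any list, and 112 of these are the first coding bases, which the peak of eIF3b replicate 1 on exons 2 to 8 jumped on its way to an upstream exon.

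PLEC also held the widest member peak in every list except eIF3a replicate 2. In METTL16 replicate 1 a single peak of 6204 exonic bases ran over exons 14 to 32, in METTL16 replicate 2 one of 6414 bases over exons 13 to 32, and in eIF3b replicate 1 one of 7882 bases over exons 10 to 32. Each of these was the widest of all peaks in its list. In eIF3b replicate 2 the widest PLEC peak had 3956 bases, and in eIF3a replicates 1 and 2 it had 3147 and 1859. In eIF3a replicate 2 a peak of EVPL with 3685 bases and peaks of MACF1 with 2969 and 1950 were wider. The coverage of PLEC was divided into 6 peaks in eIF3b replicate 1, 8 in METTL16 replicate 2, 11 in each eIF3a list, and 13 in METTL16 replicate 1 and eIF3b replicate 2. The highest fold enrichment on PLEC, RIP over input as deposited by the authors, was 63.6 and 124 in METTL16, 36 and 79.6 in eIF3a, and 77.6 and 42.1 in eIF3b.

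EVPL (chr17:76004502-76027306, minus strand, 22 exons) has 6099 coding bases, of which 3438 lie in its last exon. Peaks covered 35.9% and 56.6% of the coding bases in METTL16, 61.2% and 68.9% in eIF3a, and 84.1% and 36.4% in eIF3b. Both METTL16 lists lay below both eIF3a lists, while the eIF3b replicates spanned almost the whole range. The last exon was covered by 54.5% and 63.3%, 88% and 100%, and 95.4% and 62.4% in the same order, in every list more than the smaller exons before it as a whole. The widest peaks were 3685 bases in eIF3a replicate 2, from exon 20 to the last exon, and 2966 bases in eIF3b replicate 1, over exons 17 to 22. The highest fold enrichment was 58.3 and 50 in METTL16, 29.8 and 29.4 in eIF3a and 53.5 and 27.9 in eIF3b. In all 6 lists 1293 coding bases (21.2%) were under peaks, all of them in the stretch from coding base 2616 to 5042.

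PPL (chr16:4882507-4960741, minus strand, 22 exons) is laid out like EVPL, with 2661 of its 5268 coding bases in the last exon. The share was 30.2% and 35.4% in METTL16, 28.6% and 2.89% in eIF3a, and 58.1% and 37.7% in eIF3b. In eIF3a replicate 2, which stood lowest, the gene carried 2 peaks only, of 61 and 91 bases. The other lists placed peaks at recurring positions of exon 22. A peak that ended at coding base 4079 was present in METTL16 replicates 1 and 2, eIF3a replicate 1 and eIF3b replicate 2, and the widest peak of eIF3b replicate 1, 1740 bases over exons 19 to 22, ran across the same place. The 61 bases printed above were the whole of one of the peaks in eIF3a replicate 2. The highest fold enrichment was 11 and 9 in METTL16, 6.35 and 2.45 in eIF3a, and 23.7 and 8.81 in eIF3b.

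DSP (chr6:7541338-7586714, plus strand, 24 exons, 8613 coding bases) encodes desmoplakin, which exists in a long form and in a shorter splice form that lacks part of the rod. The share under peaks was 19.5% and 5.58% in METTL16, 22% and 8.36% in eIF3a, and 22.7% and 25.4% in eIF3b. Each list had 1 peak that joined exon 23 to exon 24. This peak was 959 and 481 bases wide in METTL16, 930 and 720 in eIF3a and 989 and 929 in eIF3b, with a fold enrichment of 3.21 and 1.68, 3.55 and 1.77, and 3.7 and 4.47. In all 6 lists it left exon 23 at the same base and went on at the first base of exon 24, as in the joined sequence printed above, and so jumped 1797 coding bases. The jump equals an intron of 1 of the 8 annotated DSP transcripts. No peak of any list covered a base of the jumped stretch.

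Several other DSP peaks recurred at the same places. Peaks across exons 10 and 11 started at coding base 1158 in METTL16 replicate 1, both eIF3b lists and eIF3a replicate 1, and peaks across exons 17 and 18 were found in these 4 lists too. A peak on exon 1 that covered part of the 5′ UTR started at base 7541575 in all lists but eIF3a replicate 2. METTL16 replicate 2 had 2 DSP peaks and eIF3a replicate 2 had 1, against 6 to 9 in the other lists. DSP combined small p-values with low enrichment. Genes were ranked by the smallest p-value of their peaks, and DSP had rank 66 of 5829 and 1127 of 6337 in METTL16, 17 of 8166 and 614 of 5226 in eIF3a, and 80 of 8063 and 13 of 7570 in eIF3b. EVPL, with a highest fold of at least 27.9 in each list, ranked from 701 to 2283. A p-value of this kind depends on the number of reads as well as on the enrichment, and read numbers were not used here.

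**Figure D2:**
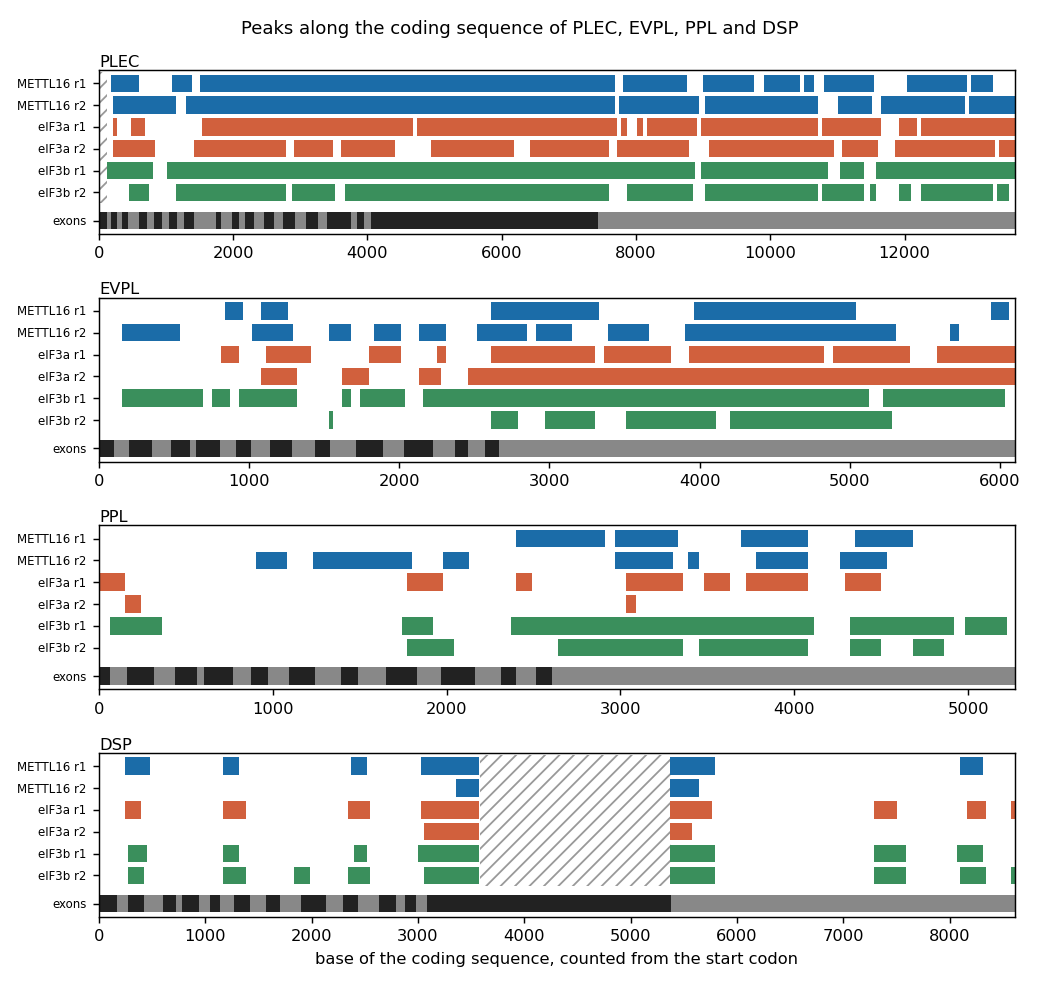
Peaks along the coding sequences of PLEC, EVPL, PPL and DSP, with the coding base on the x axis and a row for each list (r1 and r2 are the replicates), drawn in bins of 30 bases. Alternating dark and grey bars are coding exons, and hatching marks coding bases that a peak jumped, which are 1797 bases in DSP and 112 in PLEC.

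MACF1 (chr1:39081316-39487177, plus strand, 101 exons) has the second longest coding sequence of the 8, with 22665 bases. Peaks covered 11.3% and 0.269% of it in METTL16, 18.3% and 27.7% in eIF3a, and 35.4% and 26.9% in eIF3b. The lone peak of METTL16 replicate 2 was 61 bases wide with a fold enrichment of 1.62. Both METTL16 lists lay below both lists of eIF3a and of eIF3b. Enrichment was modest, with a highest fold of 3.97 and 1.62 in METTL16, 3.62 and 4.57 in eIF3a, and 6.28 and 14.7 in eIF3b. The fold of 14.7 belonged to a peak of 61 bases that lay on no exon of the canonical transcript. The next highest fold in eIF3b replicate 2 was 4.07.

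In MACF1 no list had a peak base on exon 37, its largest, which has 5451 coding bases and makes up 24.1% of the coding sequence. Peaks of both eIF3a and both eIF3b lists ended a block on exon 36 and went on in exon 42, jumping 6201 coding bases, and this jump equals an intron in 5 of 58 annotated transcripts. The next largest exon, exon 58 with 1472 coding bases, varied from list to list, with 0% in both METTL16 lists, 20.8% and 96.1% in eIF3a and 77.4% and 52.9% in eIF3b under peaks. The widest MACF1 peak, 2969 bases in eIF3a replicate 2, ran over exons 50 to 58. Where the MACF1 coding sequence is counted without the jumped parts, 16353 bases are left, and the share was 15.7% and 0.373%, 25.4% and 38.3%, and 49% and 37.3%.

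DST (chr6:56457987-56954830, minus strand, 104 exons) has the longest coding sequence, 23454 bases, and the lowest GC content, 41.6%. The share under peaks was 3.86% and 2.19% in METTL16, 12.9% and 8.74% in eIF3a, and 18.9% and 26.4% in eIF3b. The replicates of each protein did not overlap with those of another, with METTL16 lowest and eIF3b highest. With peaks of at least 4-fold enrichment only, the DST means were 0.964% for METTL16, 0.898% for eIF3a and 11.2% for eIF3b. METTL16 was then no longer lowest. As in MACF1, the largest exon, exon 40 with 5508 coding bases, had no peak base in any list. In eIF3a replicate 1 and both eIF3b lists a peak went from exon 39 straight to exon 45, over 6258 coding bases, and 7 of 41 annotated transcripts have this intron. The widest of these peaks, 2161 bases in eIF3b replicate 2, ran from exon 30 to exon 48. With the jumped bases left out the share was 5.27% and 2.98%, 17.7% and 11.9%, and 25.8% and 36%.

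Whether RIP reads were few on the jumped exons, or whether the gene models used for peak calling did not hold them, cannot be told apart. The models are not given in the sources used here. Each of these jumps equals an intron of some annotated transcripts, and whether the messages of these cells hold the jumped exons was not tested. Jumps of this kind were seen beyond the plakins. Of 42306 peaks made of at least 2 blocks over all genes, 2249 (5.32%) had canonical coding bases in a gap between their blocks. Among 50 genes with a peak in any list and a coding exon of at least 5000 bases, 39 had a peak base on that exon in at least 1 list, and 11 had none in any list. AHNAK, DST and MACF1 were among these 11, and PLEC and AHNAK2 were among the 39.

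AHNAK (chr11:62433542-62556235, minus strand) has 17328 of its 17670 coding bases, 98.1%, in exon 5. No peak of any name or strand touched that exon in any list. Here too, a lack of enrichment and an exon outside the gene models used for calling cannot be told apart. The 5 AHNAK peaks lay on the small exons before it. In METTL16 replicate 1 and eIF3b replicate 1 a peak of 414 bases spanned exons 1 to 4 with the same start and end and a fold enrichment of 3.46 and 3.76. METTL16 replicate 2 had a peak of 148 bases, eIF3a replicate 1 one of 119 bases and eIF3b replicate 2 one of 266 bases, with folds of 1.79, 1.75 and 1.79, and eIF3a replicate 2 had none. Of the 246 bases of the 5′ UTR, these peaks covered 86.2% and 60.2% in METTL16, 48.4% in eIF3a replicate 1, and 86.2% and 74% in eIF3b. AHNAK was thus the only member with more 5′ UTR than coding bases under its peaks in each list where it had one.

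AHNAK2 (chr14:104937244-104978374, minus strand) has 16734 of 17385 coding bases in exon 7, and its 2 peaks of 61 bases both lay there. The peak of METTL16 replicate 2 covered coding bases 12681 to 12741 with a fold enrichment of 19.1, and that of eIF3b replicate 1 covered bases 4917 to 4977 with a fold of 12.4. They did not overlap, neither was found in the other replicate, and both are among the narrowest of the member peaks, 23 of which had 61 bases. Their p-values, 0.00036 and 0.0026, ranked the gene 5576 of 6337 and 7861 of 8063.

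Repeats within a gene can keep a short read from being placed on a single site. Of all windows of 50 coding bases, 9.18% in AHNAK and 13% in AHNAK2 occurred again in the same gene, against 0.294% in PLEC and 0% in the other plakins. The most repeated 30 bases of AHNAK, ggcccagactggcacctgaagatgcccaag, had 9 copies, and those of AHNAK2, agcaagttcaaaatgcccaagttcaagatg, had 18 copies with a median spacing of 495 bases. No copy in AHNAK and 1 in AHNAK2 touched a peak. The 2 AHNAK2 peak sequences had no second exact copy in the gene, and their nearest match elsewhere in it differed at 2 and 1 bases. In PLEC 0.662% of windows also occurred in EPPK1, another plakin repeat gene, and in EVPL 2.45% occurred in EVPLL. How reads with several sites were treated is not given in the sources used here, and the part of repeats in these values was not tested.

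**Figure D3:**
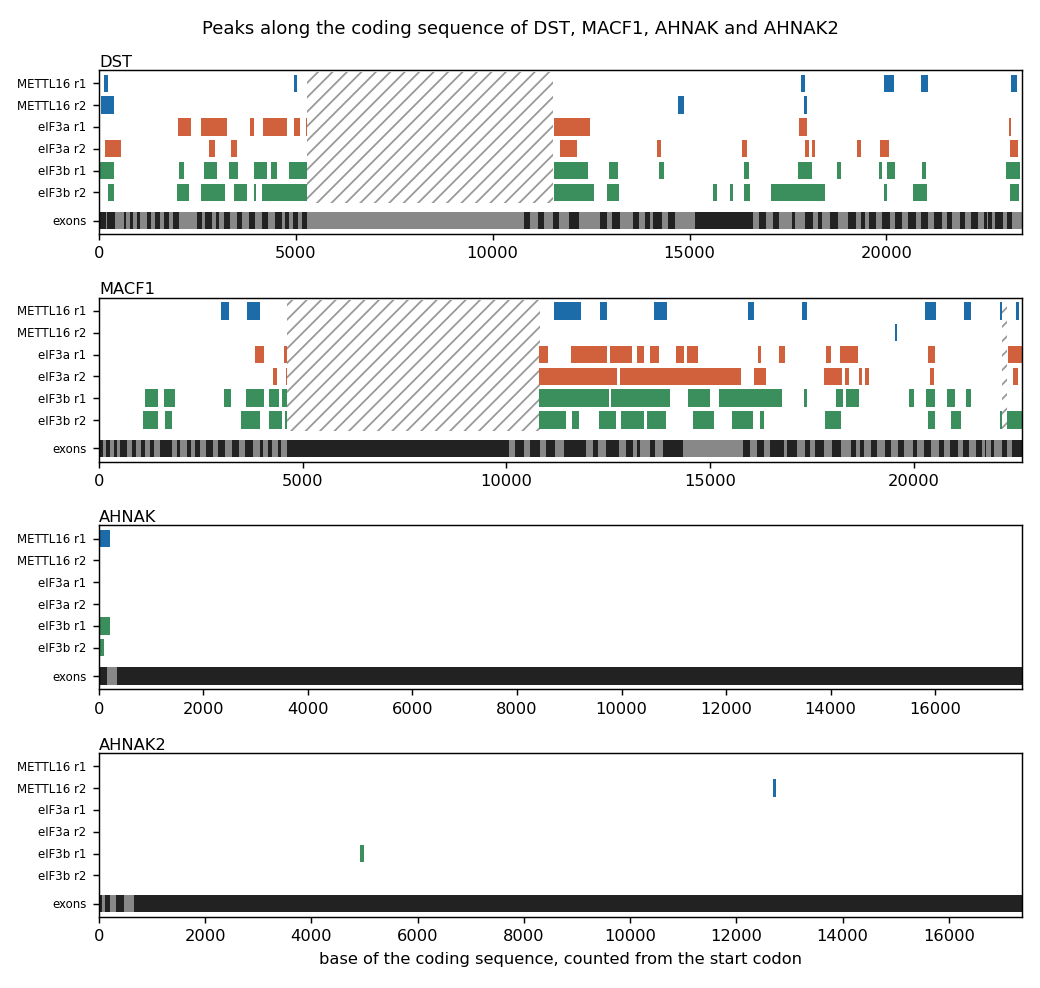
Peaks along the coding sequences of DST, MACF1, AHNAK and AHNAK2, drawn as rows of lists against the coding base in bins of 30 bases, with exons as alternating dark and grey bars. Hatching marks the 6258 coding bases of DST and 6201 of MACF1 that peaks jumped (and 111 more near the end of MACF1), and the giant exon of AHNAK carries no peak.

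PLEC held most of the wide peaks. Peaks of at least 1000 exonic bases numbered 37 among the members, 23 of them on PLEC, 5 on EVPL, 5 on MACF1, 3 on DST and 1 on PPL. By list they were 2 of 47 member peaks in METTL16 replicate 1 (1.65% of all peaks in that list) and 5 of 33 in METTL16 replicate 2 (2.3% of all). In eIF3a they were 4 of 60 (1.88% of all) and 10 of 41 (6.56% of all), and in eIF3b 9 of 60 (3.52% of all) and 7 of 64 (2.59% of all). The median width of member peaks was 211 to 301 bases, and that of all peaks 180 to 210. The median fold of member peaks was 3.21 and 5.36 in METTL16, 2.66 and 2.55 in eIF3a and 2.64 and 2.88 in eIF3b, against 2.73 to 3.4 for all peaks of the lists.

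**Figure D4:**
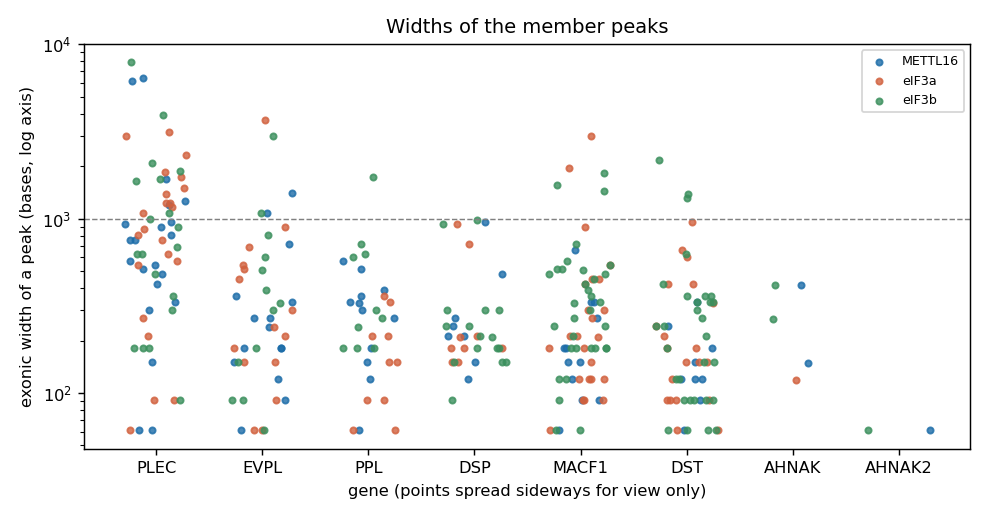
Exonic width of each of the 305 member peaks on a log axis, by gene, coloured by protein, with a dashed line at 1000 bases. Of 37 peaks at or above the line 23 are on PLEC, and the 2 peaks of AHNAK2 are 61 bases wide.

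To compare the 3 proteins, the coding bases of the 8 genes were pooled for each list. Under peaks lay 17.8% and 16.6% in METTL16 (mean 17.2% ± 0.822, SD, n = 2), 22.6% and 21.2% in eIF3a (21.9% ± 0.939), and 31.1% and 26.3% in eIF3b (28.7% ± 3.45). The lists of each protein lay apart from those of the others, with METTL16 lowest and eIF3b highest. The difference METTL16 minus eIF3a was -4.69 percentage points, METTL16 minus eIF3b was -11.5 points and eIF3a minus eIF3b was -6.78 points. In an exact two-sided permutation test each difference had p = 0.333 (adjusted over the 3 pairs 0.333), the smallest value that 2 lists against 2 can give. The test could therefore not decide. Since the members were chosen with these peaks in view, the differences are a description. With peaks of at least 4-fold enrichment only, the order of METTL16 and eIF3a turned, with METTL16 minus eIF3a at 1.19 points. With the 5000 peaks of smallest p-value per list, eIF3a minus eIF3b was -2.44 points and their lists no longer lay apart (exact permutation p = 0.667).

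Over all 10726 genes measured the pooled shares were 9.45% and 11.3% in METTL16, 15% and 14% in eIF3a, and 19.4% and 15.7% in eIF3b, the same order of proteins as among the members. Over the 533 genes with at least 5000 coding bases they were 8.67% and 7.64% in METTL16, 16.6% and 20% in eIF3a, and 19.8% and 17.9% in eIF3b, where the lists of eIF3a and eIF3b overlapped. The list of METTL16 replicate 1 held 13199 peaks, that of METTL16 replicate 2 13136, those of eIF3a 21733 and 12921, and those of eIF3b 20832 and 20027. The part of list length in the differences was not tested, beyond the values with 5000 peaks per list in the closing section.

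Single members did not all follow the pooled order. Both METTL16 lists were below both eIF3a lists for DST, MACF1 and EVPL, 3 of 8 members against 18.5% of the 8782 genes compared. They were above them for PPL, 1 of 8 against 16.3%. Against eIF3b, both METTL16 lists were lower for DST, MACF1, DSP and PPL, 4 of 8 against 31.4% of the 8711 genes compared. They were higher for no member, against 6.76% of those genes. Both eIF3a lists were below both eIF3b lists for DST, DSP, PPL and AHNAK, 4 of 8 against 22.2% of 8807 genes. They were above them for no member, against 5.58% of those genes. PLEC and AHNAK2 had overlapping lists in each comparison.

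Peak positions were compared by the Jaccard index, which is the number of exonic bases shared by 2 lists over the number covered by either. Pooled over the members it was 0.568 ± 0.0337 (SD, n = 3) between replicates of a protein and 0.507 ± 0.0549 (n = 12) between lists of different proteins, a difference of 0.0616. An exact permutation test, one-sided, enumerated all 15 pairings of the lists and gave p = 0.133, where 0.0667 is the smallest value possible. That smallest value is above 0.05, so the test could not decide whether replicates were more alike than lists of different proteins. The members were chosen with these peaks in view, so the difference is a description. PLEC held much of the pool, from 13819 of 37397 exonic bases in eIF3b replicate 1 to 13285 of 20140 in METTL16 replicate 2. A pooled index without PLEC is not given here. The highest index was 0.607, between the eIF3b replicates, and the lowest was 0.407, between METTL16 replicate 2 and eIF3b replicate 2.

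By gene, PLEC had an index of 0.809 to 0.816 between replicates and 0.748 to 0.892 between proteins. With most of its coding bases under peaks in every list, the index of PLEC is high wherever the remaining gaps fall, and nothing is read from it about positions. For DSP the index between replicates was 0.354 in METTL16, 0.328 in eIF3a and 0.739 in eIF3b. DST had 0.12, 0.137 and 0.456 in the same order, and MACF1 0, 0.418 and 0.51. A single base of DST lay under peaks in all 6 lists, and none of MACF1, AHNAK or AHNAK2, compared with 421 of DSP and 61 of PPL.

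The members also differed in base composition, which the rule did not use. Coding GC content was 66.9% in PLEC, 65.3% in EVPL, 60.6% in PPL, 58.8% in AHNAK2, 49.3% in AHNAK, 48.3% in DSP, 46.5% in MACF1 and 41.6% in DST. Among the plakins the 3 with the highest GC content had the largest shares under peaks, while AHNAK2 had a high GC content and the smallest share. For the 533 genes with a coding sequence of at least 5000 bases and a peak in any list, the median of the mean share was 4.5% in the lowest of 4 equal classes of GC content, 7.5% and 12.4% in the next classes and 22.3% in the highest. Genes share libraries and exon structure, and this is a description across genes without a test. By mean share PLEC ranked 5 of 533, EVPL 26, PPL 81, MACF1 157, DSP 183, DST 242, AHNAK 485 and AHNAK2 523. Rank 2 went to COL27A1, a collagen, with 89.3% at a GC content of 64.7%, and rank 3 to FASN, the fatty acid synthase, with 87.5% at 65.3%.

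**Figure D5:**
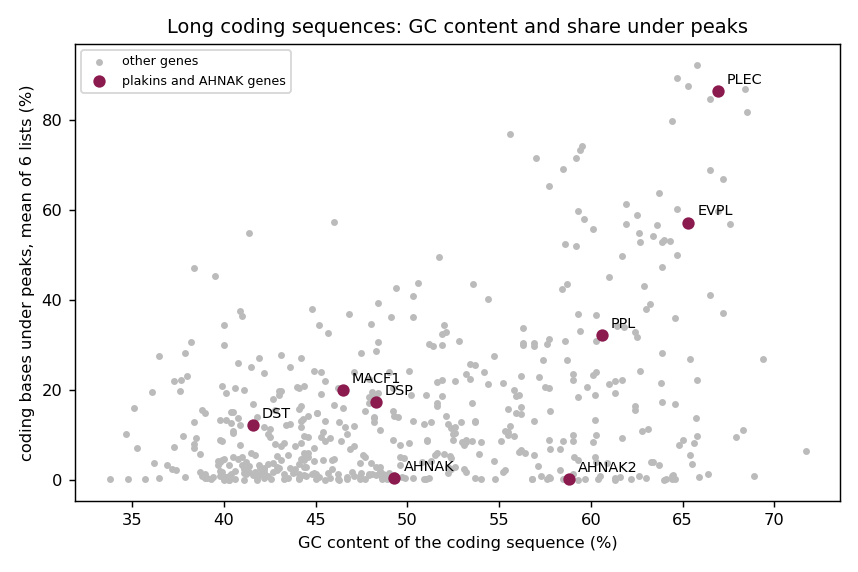
GC content of the coding sequence (x axis) against the mean percentage of coding bases under peaks in 6 lists (y axis) for 533 genes with at least 5000 coding bases, grey, and the 8 members, coloured. PLEC at 66.9% GC has a mean share of 86.5%, and AHNAK2 at 58.8% GC one of 0.117%.

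Partner genes of the plakins and AHNAK were counted by the number of lists in which they had a peak. Of 14 genes of the desmosome, the junction to which desmoplakin ties filaments, 2 had a peak in all 6 lists, 5 in some and 7 in none. The 2 were JUP (plakoglobin), with a highest fold per list of 3.35 to 7.93, and PKP3 (plakophilin 3), with 1.79 to 7.25. PKP1, DSG1, DSG3, DSG4 and DSC1 were among those without a peak. Of 7 hemidesmosome partners none had a peak in all lists and 4 had one in some, while COL17A1 and LAMB3 were among those without. Among 8 intermediate filament genes LMNB2, a lamin, was in all lists with a mean coding share of 76.9%, 6 were in some lists and KRT7 in none.

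Of 8 cornified envelope genes only EPPK1 (epiplakin), itself built of plakin repeats, had peaks in all 6 lists, with 14% to 40.6% of its coding bases covered, 1 was in some lists and 6 in none, IVL, LORICRIN, TGM3, SPRR1A and SPRR1B among them. Among 6 genes of microtubule and actin ends, ACTB was in all lists and the other 5 in some. Of 4 AHNAK partners PRX was in all lists, 2 were in some and DYSF in none. Of 16 other large cytoskeletal genes 11 had a peak in all lists, among them TLN2, a talin, with a highest fold of 18.4 in any list, and NES (nestin), with 36.2. ANK3 and PRUNE2 had none. A peak requires both a message and its enrichment, and these lists include genes without a peak in any list. The 25.2% given above is a share of names with a peak in at least 1 list, so it is not a background for these counts.

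Markers of cell types were counted in the same way, which does not check the cell type. Of 8 hepatocyte markers HNF4A and SERPINA1 had a peak in all lists, 5 in some and TTR in none. Of 8 squamous epithelium markers 7 had no peak in any list, KRT5, KRT14, KRT1, KRT10 and TP63 among them, and KRT6A had 1 in a single list with a fold of 19.2. A peak shows enrichment over input and not the level of a message, so a marker without a peak is not shown to be absent.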

How the data were processed

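RIP-seq was done by the authors in HepG2 cells after ultraviolet cross-linking, with rRNA-depleted, stranded libraries. They mapped reads to GRCh38 with STAR and used exomePeak, with its default settings, to call peaks of RIP over input in each sample. Which annotation, which versions and which input went with a RIP sample is not given in the sources used here. For each peak the authors deposited exonic blocks, a gene name, a p-value, its log10 and the log10 of the p-value after adjustment (scores, used for ranking alone), and the fold enrichment, which is a ratio of RIP to input. No counts were used here, so the depth behind a peak is unknown.

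The members and gene lists were chosen with earlier results of these data known. A member's peaks were the rows with its name. Gene structures were GENCODE release 44, canonical transcript, and older symbols were matched through RefSeq: of 10830 names, 10325 were current, 443 were older and 62 did not match. An older name of a gene that also had peaks under its current name was left out of comparisons over genes. All 8 members are named in the text. From each gene list those with peaks in all 6 lists (3 at most, by the lowest of their highest folds) and up to 5 with none are named, and from long coding sequences the 3 with the highest mean share, except for some genes that are not reported here. The study's methods call the replicates biological, and the labels give only their numbers. Proteins were compared by exact permutation tests. The calculation of coverage was tested on simulated data. Python 3.11.15, numpy 2.4.6, pandas 2.3.3 and matplotlib 3.10.9 were used. Alternatives were a fold of at least 4, 5000 peaks per list, peaks by coordinates, coding bases of all transcripts, a peak in either replicate, leaving out each list and a replicate block.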

Additional observations from a re-analysis of the deposited data

How the results depend on the processing

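There were 392 alternative values for 56 results. Only differences have a direction that could turn, and 1 value did, METTL16 minus eIF3a with the fold limit. Where an SD exists, most stayed within 1 SD of the value in the text. Differences and counts have no SD, so that rule does not apply to them. For a mean of 2 lists, leaving out 1 list cannot move the value by more than its SD. The values without 1 list could therefore not break that rule. With peaks of at least 4-fold enrichment, members with a peak in both replicates numbered 4 for METTL16 and 2 for eIF3a, the pooled coding share was 13.5%, 12.3% and 18.7% for METTL16, eIF3a and eIF3b, and METTL16 minus eIF3a turned to 1.19 points (exact permutation p = 0.667). With 5000 peaks per list, 4 members had a peak in both METTL16 replicates and the shares were 14.7%, 17.8% and 20.2%. With coding bases of all transcripts the shares of METTL16 and eIF3a were 15.3% and 19.4%. Without the bases that peaks jumped, an alternative chosen after seeing the data, they were 19.7%, 25.1% and 32.8%. With 5000 peaks per list METTL16 minus eIF3b was -5.52 and eIF3a minus eIF3b -2.44 (exact permutation p = 0.667), and with the fold limit METTL16 minus eIF3b was -5.2. The causes were not tested. Leaving out 1 list at a time moved the pooled shares to between 16.6% and 17.8%, 21.2% and 22.6%, and 26.3% and 31.1%, METTL16 minus eIF3a to between -5.35 and -4.02, METTL16 minus eIF3b to between -13.9 and -9.03, and eIF3a minus eIF3b to between -9.23 and -4.34, the last without eIF3b replicate 1. The position difference lay between 0.0377 (without eIF3b replicate 2, exact p = 0.2) and 0.0935 (without eIF3a replicate 1, p = 0.0667), and was 0.0387 with the fold limit and 0.0282 with 5000 peaks. Taking peaks by coordinates, the position difference was 0.0628 (exact permutation p = 0.0667, the smallest possible). Of 312 values for single members 61 moved by more than their SD, 22 of them with the fold limit and 19 with 5000 peaks. With the replicate number as a block the differences stayed at -4.69, -11.5 and -6.78 (exact sign-flip p = 0.5, the smallest possible) and the position difference was 0.0682. The labels share only a number: the Jaccard index between proteins was 0.5 for equal and 0.514 for different numbers. Unknown depth limits all statements on bases without a peak.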

Other observations

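Peaks named KIAA0754, an older gene name, lay inside the MACF1 locus on the same strand and were not counted as MACF1, because their name differs. There were 2 and 3 in METTL16 replicates 1 and 2, 3 and 1 in eIF3a, and 5 and 6 in eIF3b, with a highest fold of 22.5 and 16.7, 8.06 and 6.73, and 19.2 and 19.1. All of their bases, from 90 in eIF3a replicate 2 to 1563 in eIF3b replicate 1, lay on annotated exons of MACF1 and none on the canonical coding sequence. In each list the highest fold on these peaks was above the highest fold on any peak that carried the name MACF1.

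Limits: 2 lists for each protein cannot give a small p-value, peak widths depend on how the caller joined neighbouring windows, and bases outside the gene models used for calling cannot carry a peak.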
